A study of Mus musculus with 27 samples.

Results

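Retinal cells take up glucose, pass lactate to one another and buffer their energy supply with creatine, and 10 genes of this supply route were followed in the mouse retina: the glucose transporters Slc2a1 and Slc2a3, the monocarboxylate transporters Slc16a1, Slc16a3, Slc16a7 and Slc16a8, their accessory protein Bsg, the creatine kinases Ckb and Ckmt1 and the creatine transporter Slc6a8. They were picked by symbol and were 10 of the 38168 features in the table, each with a single entry. RNA-seq had been run on whole retinas of untreated wild type C57BL/6J mice at 7 ages, with 3 libraries at embryonic day 14 (E14), 3 at E17, 4 at postnatal day 1 (P1), 3 at P6, 4 at P15, 4 at P28 and 6 at P60. The mice lived in a light and dark cycle and tissue was taken in the light phase. Most libraries were pools of retinas from several animals, samples up to P1 held both sexes, and later ones were males. Age and sex therefore cannot be told apart from P1 to P6 or between embryonic and later ages. The authors describe 4 of the 6 P60 samples as single mice and the rest as pools of 3 mice. The sources used here do not match these samples to libraries. Values are reads of a gene scaled to the library total (cpm, counts per 1e6 reads), and the libraries held from 7077781 to 11332323 reads.

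As background, photoreceptors break down much of their glucose to lactate even when oxygen is present. Glucose enters through GLUT1, encoded by Slc2a1, and the neuronal transporter GLUT3, encoded by Slc2a3. Lactate and pyruvate cross membranes through the monocarboxylate transporters MCT1 (Slc16a1), MCT2 (Slc16a7), MCT3 (Slc16a8) and MCT4 (Slc16a3), and basigin (Bsg) carries several of them to the cell surface. Creatine enters through Slc6a8, and the mitochondrial kinase Ckmt1 and the cytosolic kinase Ckb move high-energy phosphate between it and ATP.

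Up to P28, every library had a higher mean correlation across genes with its own age than with any neighbouring age. At P60, libraries 1, 2 and 6 had a higher mean correlation across genes with the P28 libraries (r of 0.975 to 0.985) than with the other P60 libraries (0.962 to 0.973), so P60 results are also given without them and without libraries 3, 4 and 5. The retina was recognisable by its markers. All 8 rod photoreceptor genes examined had reads at every age, and their summed level rose from 23.7 to 30.9 cpm at E14 to between 26294 and 32074 cpm at P60. In whole tissue, fewer cells of a type and less RNA per cell cannot be told apart.

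**Figure D1:**
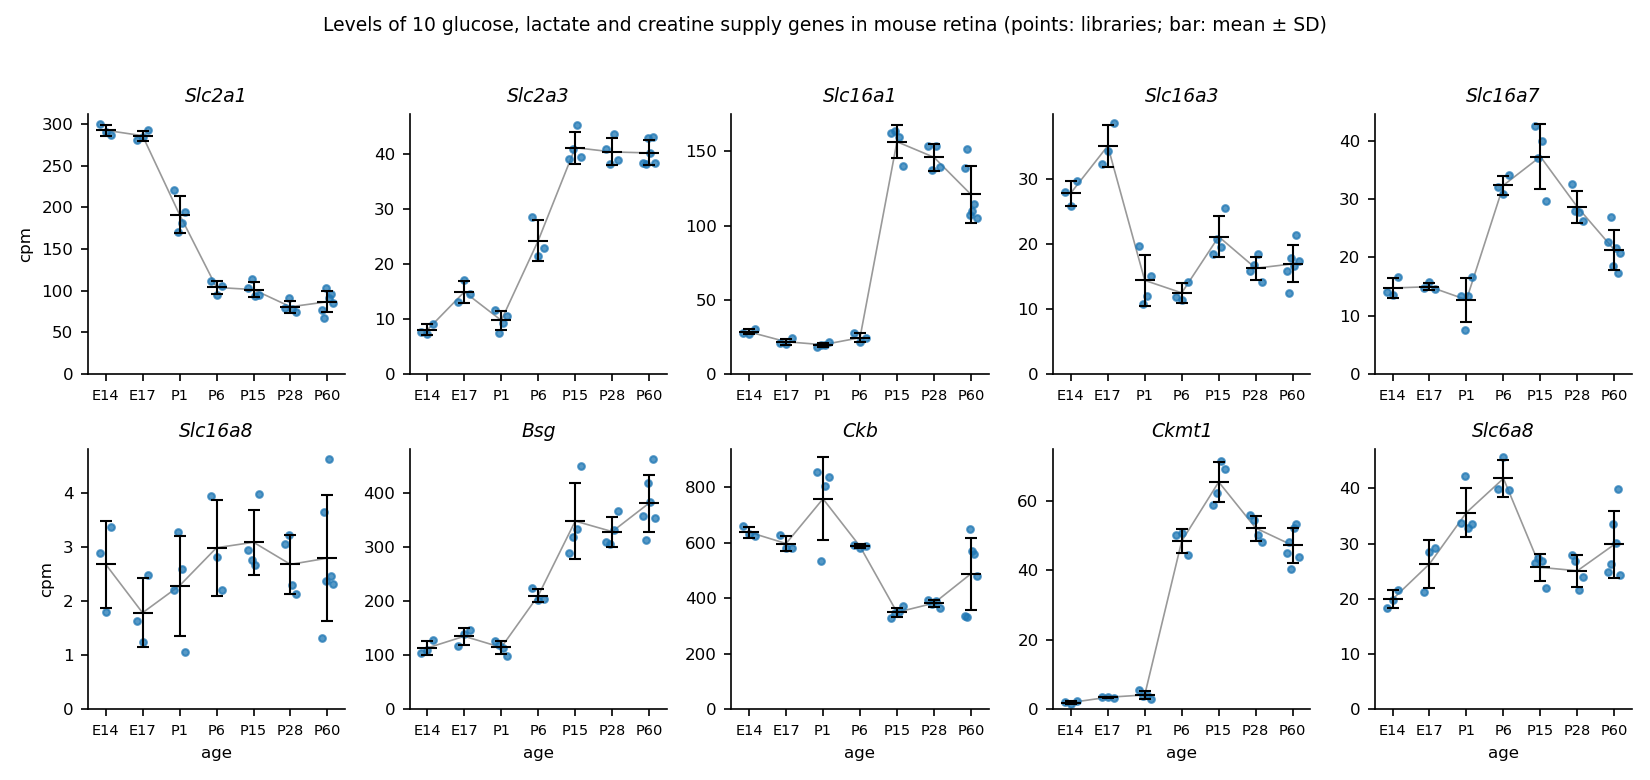
Level of each of the 10 genes by age in cpm, on linear axes that start at 0. Points are libraries, and the bars are the mean with the SD over 3 to 6 libraries. Slc2a1 fell from 293 cpm at E14 to 86.8 at P60, Slc16a1 jumped between P6 and P15, and Ckmt1 jumped between P1 and P6.

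Between embryonic retina (E14 and E17) and mature retina (P15, P28 and P60), 9 of the 10 genes changed. Ckmt1, Slc16a1, Slc2a3, Bsg, Slc16a7 and Slc6a8 were higher in mature retina, Slc2a1, Slc16a3 and Ckb were lower, and Slc16a8 did not pass the test. A change was called by limma, a linear model over all features, on log2(cpm + 1) at a Benjamini-Hochberg adjusted p under 0.05. By that rule 75.4% of the 31760 features tested changed between these ages, 35.0% upward and 40.4% downward, so most features changed, as these genes did. With a log2 fold change of at least 1 in addition, 5 of the 10 genes passed, against 31.0% of all features. The median log2 fold change of the 10 genes was 0.57, and that of all features was -0.06. An F test over the 7 ages in the same fit found variation with age for every gene but Slc16a8, whose adjusted p was 0.41.

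The glucose transporters moved in opposite directions. Slc2a1 was at 300.2, 291 and 287 cpm at E14 and at 281, 284 and 292 cpm at E17. It was at 220.4, 170.0, 181 and 194 cpm at P1 and at 111, 94.8 and 106 cpm at P6. These 4 ages form a descent in which only E14 and E17 overlap. From P15 on it stayed low, with 94.0 to 114 cpm at P15, 74.8 to 91.3 at P28, and 67.9, a median of 88.3 and 103 at P60. The fall from E17 to P1 was 0.58 ± 0.11 (SE) on the log2 scale and the fall from P1 to P6 was 0.87 ± 0.11, with limma adjusted p of 0.00025 and 4.9e-08. From P15 to P28 the log2 fold change was -0.32 with an adjusted p of 0.074 (limma), so this step was not called. Over the whole period Slc2a1 was 3.23 times lower in cpm in mature than in embryonic retina, a log2 fold change of -1.69 ± 0.07.

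Slc2a3 ran the other way, but not evenly. It was at 7.70, 7.28 and 9.16 cpm at E14, rose to 13.2, 17.2 and 14.5 cpm at E17, and was back at 11.7, 7.56, 9.38 and 10.5 cpm at P1. The E17 libraries lay above those of both neighbouring ages. The 3 libraries at P6 held 28.5, 21.5 and 22.9 cpm, and from P15 to P60 all 14 libraries lay between 38.2 and 45.4 cpm. In the limma fit the step from E14 to E17 was a log2 fold change of 0.82 ± 0.13, that from E17 to P1 was -0.57 ± 0.13, that from P1 to P6 was 1.24 ± 0.13 and that from P6 to P15 was 0.75 ± 0.13. All 4 passed, and P15, P28 and P60 overlapped. Slc2a3 was 3.53 times higher in mature than in embryonic retina.

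Within each library the balance of the pair therefore shifted. The log2 ratio of Slc2a3 to Slc2a1, with 1 added to both cpm values, was -4.60 ± 0.49 (SD, n = 6) in embryonic and -1.11 ± 0.20 (n = 14) in mature libraries. The difference of 3.49 had p = 5.2e-05 in a two-sided exact permutation test, the smallest p these numbers allow, and the same after adjustment over the 4 ratios tested. For all 4 ratios the test shuffled single libraries, several of which share an age. Its p therefore does not measure the spread between ages. Per kb of exon, Slc2a1 still exceeded Slc2a3 in every one of the 27 libraries, by 64.8 to 82.5 times at E14 and by 3.66 to 4.95 times at P60. Since Slc2a1 was the larger term, the summed level of both per kb fell from 84.6 ± 1.87 (SD, n = 3) at E14 to 30.3 ± 3.91 (n = 6) at P60, while the share of Slc2a3 in that sum rose from 1.31% to 18.5%.

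Marker lists of several cell types are given here beside Slc2a1. The 10 vascular endothelial genes summed to 167 to 181 cpm at E14, 424 to 492.8 cpm at P1 and 220.1 to 237 cpm at P60, and all but Tie1 at E17 had reads at each age. Most of this sum was Kdr, at 167 cpm at E14, 457 at P1 and 119 at P60, which is lower in mature retina. The list as a whole did not share that course, since 7 of its 10 genes were higher in mature retina, such as Flt1 with 2.13 cpm at E14 and 78.4 cpm at P60, and 3 were lower. The erythroid genes measured, the globins among them, summed to at most 50.6 cpm in any library. The 8 genes of cycling progenitors also went down, though not in step with Slc2a1. They summed to 4351 to 4584 cpm at E14, 3481 to 3720 at E17 and 2911 to 3310 at P1. At P6 the sum was 84.3 to 113 cpm and at P60 11.7 to 21.5 cpm. From E17 to P1, where Slc2a1 fell, 2 of the 8 were called lower and 6 were not called. The counts were the same from E14 to E17, where Slc2a1 overlapped. The part of these cells in the change of Slc2a1 was not tested.

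**Figure D2:**
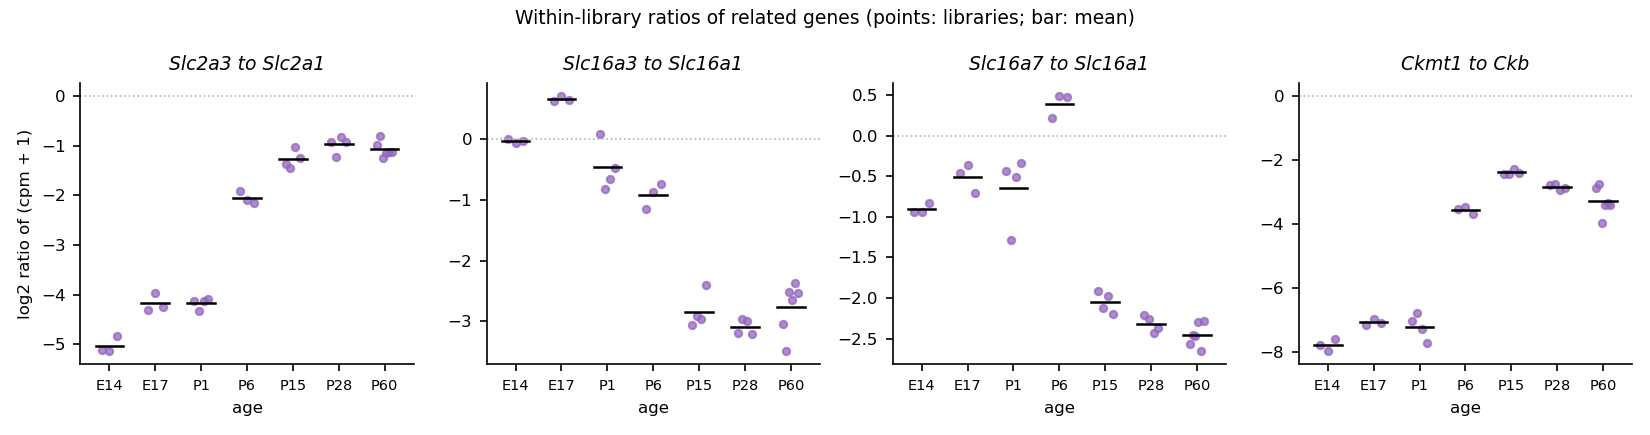
Log2 ratio of (cpm + 1) of 4 pairs of related genes in each library, by age; points are libraries and bars are means. The ratio of Slc2a3 to Slc2a1 climbed by 3.49 and that of Ckmt1 to Ckb by 4.52 between embryonic and mature libraries, whereas Slc16a3 and Slc16a7 dropped relative to Slc16a1.

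Slc16a1, the gene of MCT1, had the sharpest single step of the monocarboxylate transporters. It was at 27.8, 27.1 and 30.4 cpm at E14, at 20.6 to 24.2 cpm at E17, at 18.4 to 21.4 cpm at P1 and at 27.6, 21.7 and 24.3 cpm at P6. At P15 the 4 libraries held 162, 164, 159.9 and 140.1 cpm. No library up to P6 exceeded 30.4 cpm and none from P15 on was below 105 cpm. The step from P6 to P15 was 6.39-fold in cpm, a log2 fold change of 2.63 ± 0.11 with a limma adjusted p of 3e-18. Smaller changes lay before it, a fall of 0.37 ± 0.12 on the log2 scale from E14 to E17 and a rise of 0.29 ± 0.11 from P1 to P6, with adjusted p of 0.039 and 0.037 (limma). Both were lost when some single libraries were left out. The adjusted p was 0.064 to 0.17 for the first without any library of E14, or without E17 replicate 1 or 2, and 0.054 to 0.22 for the second without P1 replicate 1, 2 or 3 or P6 replicate 1 or 3. P28 held 137 to 154 cpm, within reach of P15, and P60 held 105, a median of 112 and 152 cpm. Mature retina had 5.62 times the cpm of embryonic retina.

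Slc16a3, the gene of MCT4, is known for export of lactate from glycolytic cells. Among the monocarboxylate transporters of the set, it had the clearest embryonic peak. Its libraries held 27.9, 25.8 and 29.7 cpm at E14, 32.3, 34.3 and 38.5 cpm at E17, and 19.6, 10.8, 12.0 and 15.1 cpm at P1. The E17 values lay above all others, and P1 lay below both embryonic ages. The fall from E17 to P1 was 2.43-fold, a log2 fold change of -1.26 ± 0.16 with a limma adjusted p of 1.1e-06. After 11.9, 11.4 and 14.2 cpm at P6 it rose to 18.5, 20.8, 19.6 and 25.6 cpm at P15, by 0.71 ± 0.16 on the log2 scale, and at P60 it spanned 12.5 to 21.3 cpm with a median of 17.04. Mature levels stayed 1.74 times below embryonic ones, and every mature library was below every embryonic library.

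Slc16a7, the gene of MCT2, a high-affinity transporter of neurons, rose at another step. It was at 13.6 to 16.6 cpm at E14, 14.5 to 15.7 at E17 and 13.4, 7.56, 13.3 and 16.7 cpm at P1. At P6 the libraries held 32.1, 30.9 and 34.1 cpm, well above all earlier ones. This step was 2.54-fold, a log2 fold change of 1.33 ± 0.17 with a limma adjusted p of 9.2e-08. It was highest at P15, at 42.4, 37.0, 39.9 and 29.7 cpm, which overlapped P6 and P28, and reached 17.3, a median of 21.2 and 26.9 cpm at P60. Between embryonic and mature retina it rose 1.95-fold.

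Slc16a8, the gene of MCT3, known from the retinal pigment epithelium that lies against the retina, was close to the limit of the libraries. It had 9 to 42 reads per library, or 1.06 to 4.64 cpm, and the 7 ages overlapped as neighbours throughout their order. From embryonic to mature libraries it differed by 0.26 ± 0.17 on the log2 scale, with a limma adjusted p of 0.15, and no change was detectable at this depth. The 10 pigment epithelium genes Rpe65, Lrat, Best1, Ttr, Rgr, Rdh5, Tyr, Tyrp1, Pmel and Dct all had reads at every age. Their summed level ran from 8.8 to 12.6 cpm at E14, 72.9 to 120.4 cpm at P15 and 27.7 to 94.4 cpm at P60. How much of the Slc16a8 signal came from attached pigment epithelium was not tested.

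**Figure D3:**
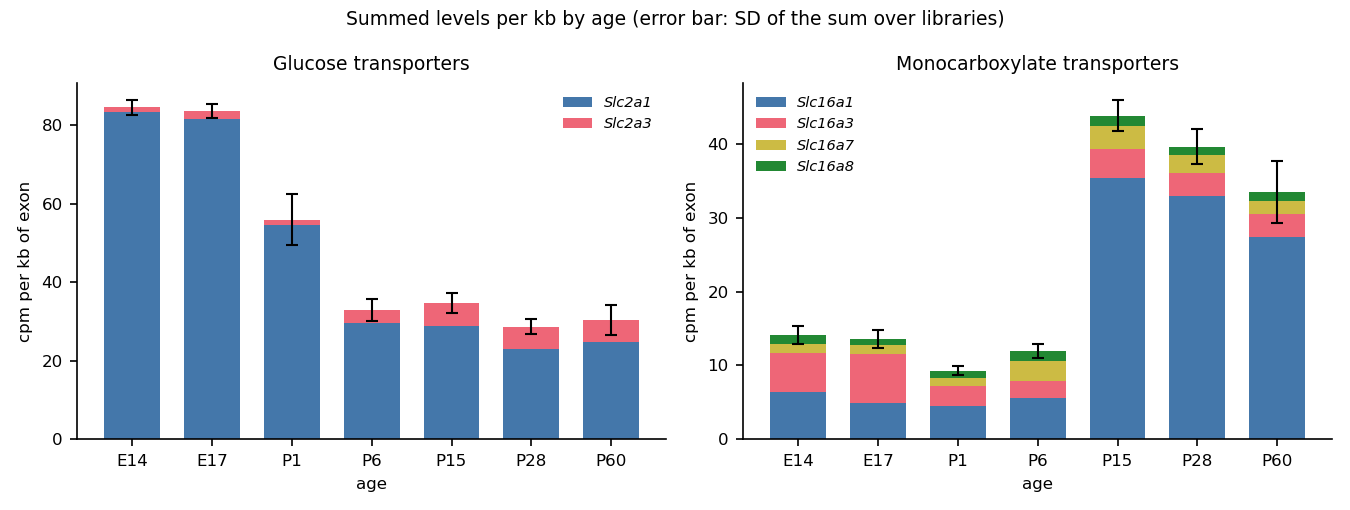
Summed levels in cpm per kb of exon of the 2 glucose transporters (left) and the 4 monocarboxylate transporters (right) by age, stacked by gene, with the SD of the sum over libraries. The glucose transporter sum falls from 84.6 at E14 to 33.0 at P6, and the monocarboxylate sum rises from 11.9 at P6 to 43.8 at P15 through Slc16a1.

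Added up per kb of exon, the 4 monocarboxylate transporters held 14.1 ± 1.21 (SD, n = 3) cpm per kb at E14, 9.26 ± 0.603 (n = 4) at P1, 11.9 ± 1.01 (n = 3) at P6 and 43.8 ± 2.13 (n = 4) at P15. Slc16a1 made up 45.7% of this sum at E14, 36.3% at E17 and 46.3% at P6, then 80.6% at P15 and 81.2% at P60. Slc16a3 led the sum only at E17, at 48.6%, and Slc16a7 reached its largest share, 23.0%, at P6. In every E17 library Slc16a3 exceeded Slc16a1 per kb, and in all 24 libraries of the other ages Slc16a1 exceeded Slc16a3. The log2 ratio of Slc16a3 to Slc16a1 went from 0.31 ± 0.38 (SD, n = 6) to -2.88 ± 0.34 (n = 14), and that of Slc16a7 to Slc16a1 from -0.71 ± 0.25 to -2.30 ± 0.21. Both differences, -3.20 and -1.59, reached the smallest p of the exact permutation test, 5.2e-05. Per kb, Slc16a1 was below Slc2a1 in all 13 libraries up to P6 and above it in all 8 libraries of P15 and P28, while at P60 it was above it in 2 of 6.

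Promoter windows were read for 6 of the genes and are printed for 4, because Slc2a1 and Slc16a3, which fell around birth, are known targets of the hypoxia factor HIF, whose binding core is ACGTG. The lines below give 150 bases each upstream of an annotated start, for Ckmt1 the downstream one of 2 starts, from RefSeq on GRCm38.p6, plus strand, and capitals mark ACGTG read on either strand. The regions are chr4:119108565-119108714, chr3:104638414-104638563, chr11:120948908-120949057 and chr2:121358460-121358609, and they end 30, 100, 9 and 0 bases before the start site.
Slc2a1: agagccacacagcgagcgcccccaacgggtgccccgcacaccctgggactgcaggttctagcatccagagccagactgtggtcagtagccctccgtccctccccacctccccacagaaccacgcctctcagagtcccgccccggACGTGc
Slc16a1: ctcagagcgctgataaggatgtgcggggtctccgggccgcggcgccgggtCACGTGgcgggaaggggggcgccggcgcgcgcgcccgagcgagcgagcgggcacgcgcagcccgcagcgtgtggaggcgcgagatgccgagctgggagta
Slc16a3: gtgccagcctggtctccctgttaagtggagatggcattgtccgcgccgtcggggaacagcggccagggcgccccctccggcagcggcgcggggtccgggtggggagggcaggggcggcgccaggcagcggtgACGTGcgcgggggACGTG
Ckmt1: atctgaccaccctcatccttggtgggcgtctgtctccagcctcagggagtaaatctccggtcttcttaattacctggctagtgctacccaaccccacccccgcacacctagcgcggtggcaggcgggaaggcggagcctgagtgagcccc
In windows of 300 bases, from 250 before to 50 after the start, ACGTG was found 1 time for Slc2a1, 2 times for Slc16a3 and 3 times for Slc16a1, where the palindrome CACGTG counts on both strands. It was not found in the windows of Slc16a8, Ckb or Ckmt1. Of all 32851 promoter windows, 19.6% held it. TAATCC, a core bound by photoreceptor homeobox proteins, was in none of the windows of these 6 genes and in 7.1% of all. Windows of Slc2a3, Slc16a7, Bsg and Slc6a8 were not read here. These matches are letters in a window, and they carry no measurement of binding.

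Bsg, whose product escorts MCT1 and MCT4 and also binds the rod-derived cone viability factor, rose in 2 steps. It was at 103, 109 and 127 cpm at E14, 118, 139.9 and 147 at E17 and 125.5, 119, 113 and 98.7 at P1, which overlapped. The libraries held 224, 202 and 205 cpm at P6 and 289, 318, 334 and 451 cpm at P15, with no overlap between these ages or with earlier ones. The steps were 0.88 ± 0.12 and 0.71 ± 0.12 on the log2 scale, with limma adjusted p of 5.1e-07 and 2.7e-05. P28 held 306 to 366 cpm and P60 held 313, a median of 371 and 463 cpm. Mature retina had 2.85 times the cpm of embryonic retina. At P6, when Bsg had already risen 1.84-fold over P1, Slc16a1 was still at 21.7 to 27.6 cpm.

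Among the creatine genes, Ckmt1 had the largest change of all 10. It was at 2.001, 1.48 and 2.21 cpm at E14, 3.37, 3.62 and 3.21 at E17 and 5.52, 3.78, 4.07 and 2.96 at P1. The P6 libraries then held 50.2, 50.7 and 44.4 cpm. The low values rest on 14 to 45 reads a library and those at P6 on 322 to 469 reads. The step from P1 to P6 was 11.9-fold in cpm, a log2 fold change of 3.30 ± 0.14 with a limma adjusted p of 4.6e-19. A rise of 0.61 ± 0.15 from E14 to E17 came before it, and one of 0.43 ± 0.14 from P6 to P15 after it, with adjusted p of 0.0038 and 0.015 (limma). The last was lost without P6 replicate 3, where the adjusted p was 0.084. Ckmt1 was highest at P15, at 58.9, 62.4, 71.4 and 69.1 cpm, above all P28 libraries, and P28, P6 and P60 overlapped. Mature retina had 20.7 times the cpm of embryonic retina, a log2 fold change of 3.96 ± 0.09.

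Ckb, the cytosolic brain-type kinase, had the highest mean cpm of the 10 genes at each age, but at P15 its mean of 349 cpm was level with the 348 cpm of Bsg, and Bsg exceeded it in single libraries from P15 on. It was at 659, 630.1 and 623 cpm at E14, 628, 581 and 581 at E17, and 593, 579 and 587 at P6, which lay close together. At P1 it held 856, 535, 802 and 837 cpm, so that 3 libraries lay above and replicate 2 below all embryonic and P6 values. At P15 it was at 329, 344, 351 and 369.7 cpm, and the fall from P6 was 0.75 ± 0.16 on the log2 scale, 1.68-fold, with a limma adjusted p of 0.00032. The steps into and out of P1 were not called, at log2 fold changes of 0.32 and -0.34 with adjusted p of 0.25 and 0.083 (limma). Without P1 replicate 2 they were 0.48 and -0.50 with adjusted p of 0.044 and 0.0084. The second also passed without P60 replicate 1, 2 or 3, at adjusted p of 0.042 to 0.045. Mature retina was 1.52 times lower than embryonic retina, but the groups overlapped, since P60 libraries reached 650.2 cpm.

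The 2 kinases thus crossed in their changes. The log2 ratio of Ckmt1 to Ckb was -7.44 ± 0.41 (SD, n = 6) in embryonic and -2.91 ± 0.48 (n = 14) in mature libraries, a difference of 4.52 at the smallest p of the exact permutation test, 5.2e-05. Ckb had 346 ± 73.8 times the cpm of Ckmt1 at E14, 194 ± 63.7 times at P1, 12.1 ± 0.941 times at P6 and 5.34 ± 0.2996 times at P15. Per kb, Bsg was below Ckb in each of the 13 libraries up to P6 and above it in each of the 14 from P15 on.

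Slc6a8, the creatine transporter, took a course of its own. It was at 18.3, 19.8 and 21.6 cpm at E14, 21.3, 28.5 and 29.2 at E17, 33.7, 42.4, 32.9 and 33.6 at P1 and 40.0, 45.8 and 39.7 at P6. Each of these ages was higher on average than the one before, but no single step passed, and that from E17 to P1 had a log2 fold change of 0.43 with an adjusted p of 0.058 (limma). It passed without P60 replicate 1, 2, 3 or 5, at adjusted p of 0.030 to 0.049. The fall from P6 to 26.5, 27.4, 26.9 and 22.0 cpm at P15 was called, at 0.68 ± 0.14 on the log2 scale with an adjusted p of 0.00036. Between mature and embryonic retina the log2 fold change was only 0.22 ± 0.09, with an adjusted p of 0.037 (limma), and the groups overlapped. Without E14 replicate 1 or 2, E17 replicate 1, P15 replicate 2 or 3, or P28 replicate 1 or 2 this call was lost, at adjusted p of 0.052 to 0.18.

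**Figure D4:**
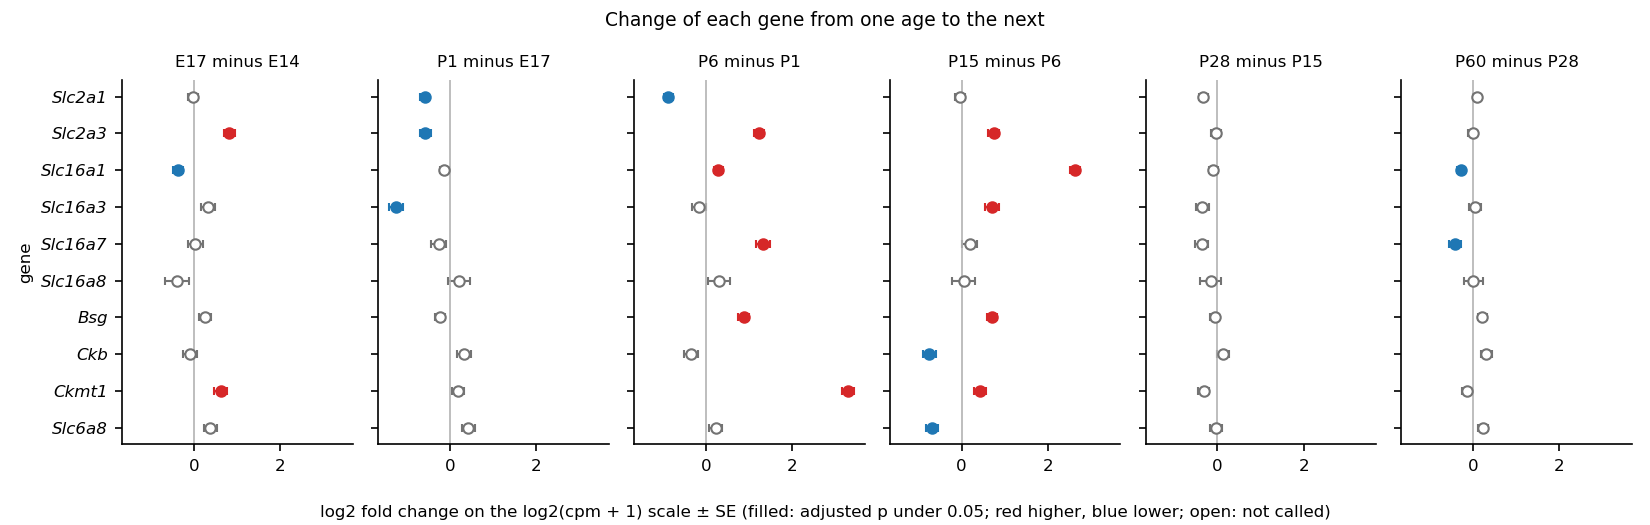
Log2 fold change of each gene from one age to the next, with its SE, in 6 panels on a common axis. Filled red and blue points passed the adjusted p of 0.05 upward and downward, and open points did not. The largest steps are Ckmt1 from P1 to P6 (3.30) and Slc16a1 from P6 to P15 (2.63), and the panel from P15 to P28 holds only open points.

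Read step by step, most calls among the 10 genes fell at the steps to P6 and P15, as did most calls over all features. At the first step, E17 over E14, 3 of the 10 genes were called, against 10.6% of all features. Ckmt1 and Slc2a3 were higher (7.56% of features) and Slc16a1 lower (3.02%). At the step to P1, 3 were called (9.21%), and Slc2a1, Slc2a3 and Slc16a3 were all lower, where 3.43% of features were lower and 5.77% higher. At the step to P6, 6 were called (38.3%), with 5 higher (18.0%) and only Slc2a1 lower (20.4%). At the step to P15, 7 were called (33.4%). Slc16a1, Slc2a3, Bsg, Slc16a3 and Ckmt1 were higher (14.4%) and Ckb and Slc6a8 lower (19.0%). Asking in addition for a log2 fold change of at least 1 left 0 genes at E17 (3.60% of features), Slc16a3 at P1 (1.84%), Ckmt1, Slc16a7 and Slc2a3 at P6 (13.0%), Slc16a1 at P15 (8.05%), and 0 at P28 (0.384%) and P60 (0.453%). From P15 to P28 limma called 0 of the 10 (2.72% of all features), as did edgeR and DESeq2, and 4 had an unadjusted p under 0.05, namely Slc2a1, Ckmt1, Slc16a3 and Slc16a7. The call of Slc2a1 at this step appeared without P28 replicate 2 or P60 replicate 2 or 3, at adjusted p of 0.028 to 0.050.

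From P28 to P60, 2 of the 10 genes were called, against 12.9% of all features, 4.80% upward and 8.11% downward. That background of 4100 features itself rested on few libraries, being 7425 and 7517 without P60 replicate 1 or 2, between 1513 and 2680 without any single P28 library, between 1944 and 2090 without P60 replicate 3, 4 or 5, and 7 in the fit of the compared ages only. Slc16a1 was lower by 0.28 ± 0.09 and Slc16a7 by 0.42 ± 0.14 on the log2 scale, with limma adjusted p of 0.045 and 0.047, and the ages overlapped for both. These calls stood near the threshold. The call of Slc16a1 was lost in 17 and that of Slc16a7 in 21 of the 27 fits that left out a single library, including each P28 library and P60 replicates 3 to 6, at adjusted p of up to 0.13 and 0.15. The P60 libraries were split in several genes. Slc16a1 was at 139 and 152 cpm in P60 libraries 1 and 2 and at 105 to 114 cpm in libraries 3 to 6. Ckb was at 336 and 332 cpm in libraries 1 and 2, at 480.1 in library 6 and at 650.2, 567.9 and 558 cpm in libraries 3, 4 and 5, where P28 held 364 to 393 cpm.

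**Figure D5:**
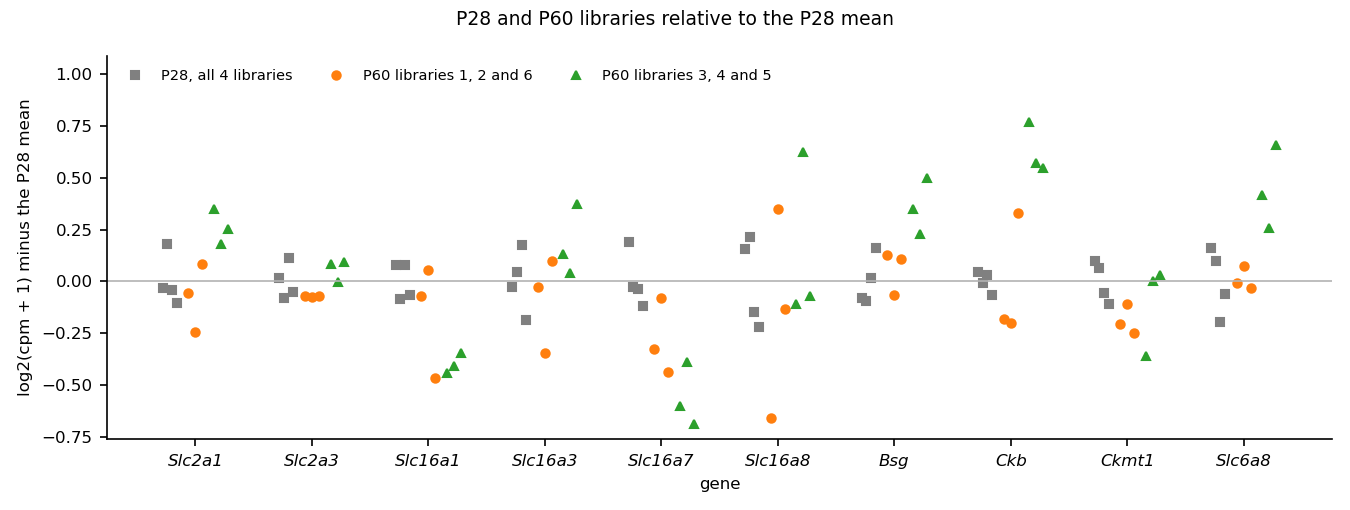
Each P28 and P60 library's log2(cpm + 1) minus the P28 mean, by gene. P60 libraries 3, 4 and 5 sit above all P28 libraries for Ckb, Slc6a8, Bsg and Slc2a1. They sit below all of them for Slc16a1 and Slc16a7. Library 6 sits on the same side for Ckb, Slc16a1 and Slc16a7, and library 1 for Slc16a7. Libraries 1 and 2 lie near or among the P28 libraries for most genes.

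P60 libraries 1, 2 and 6 were set apart because they were most like P28, so leaving them out widens the difference between the ages by construction, and leaving out 3, 4 and 5 narrows it. The values without each set are given as a description. Without 1, 2 and 6 the log2 difference was -0.40 for Slc16a1, -0.56 for Slc16a7 and 0.63 for Ckb, and 6 of the 10 genes passed, beside 12495 of 31572 features. Without 3, 4 and 5 it was -0.16, -0.28 and -0.017, and limma called 0 of the 10, beside 154 of 31501 features. Leaving out only library 1 or 2 gave Ckb 0.40 or 0.41, with adjusted p of 0.015 and 0.013 (limma). The rod list summed to 28197 to 32074 cpm in libraries 3, 4 and 5 and to 26294 to 28299 cpm in libraries 1, 2 and 6, and the Muller glia list to 1659 to 1759 and 1555 to 1667 cpm. The split was also library-wide. The median-of-ratios scale factor relative to the cpm total was -0.23, -0.12 and -0.13 (log2) in libraries 3, 4 and 5. It was -0.011, -0.044 and -0.049 in libraries 1, 2 and 6. Features with reads numbered 33595, 34765 and 33057 in libraries 3, 4 and 5. They numbered 35282, 34545 and 35017 in libraries 1, 2 and 6. The part of these cells, of pooling or of such library-wide differences in the split was not tested.

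Other genes of the same routes were followed as lists, whose counts stand beside the 75.4% of all features that changed between embryonic and mature retina. Of 10 other glucose transporters 8 were tested between embryonic and mature retina, of which 3 were higher, 2 lower and 3 not called. The largest rise was in Slc2a13, the proton and myo-inositol cotransporter, from 8.02 to 42.5 cpm between E14 and P28, and the largest fall was in Slc2a4, the insulin-responsive GLUT4, at a log2 fold change of -1.12. No other member of that list reached 13 cpm on average at any age. Its median log2 fold change was 0.15. Over 37 alternatives, DESeq2 not among them, 1 to 4 of its genes were higher and 0 to 2 lower. A mean of at least 10 CPM leaves only Slc2a13 of the list to test, so the low counts include genes left out.

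Of 12 other monocarboxylate transporters and chaperones, 6 were higher, 4 lower and 2 not called, with a median log2 fold change of 0.36. Over the same alternatives 1 to 7 were higher and 2 to 4 lower, where the low counts again include genes left out. Slc16a6 had 7.30 ± 0.846 cpm at E14 (SD, n = 3), 104 ± 7.10 cpm at P15 (n = 4) and 155 ± 11.8 cpm at P60 (n = 6), and its rise was 4.06 on the log2 scale. Slc5a8, the sodium-coupled lactate transporter, was at most 0.0630 cpm on average up to P6 and was at 4.08 cpm at P15. Slc16a4 fell by 1.44 on the log2 scale. Emb, the embigin that serves MCT2 as a chaperone, went from 29.7 cpm at P1 to 12.5 cpm at P6 and 27.7 cpm at P15, both steps called, and its mature level was 0.59 below the embryonic one on the log2 scale.

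The list of basigin partners and related proteins held Nxnl1, Nxnl2, Nptn and Atp1b2, and all 4 of 4 were higher in mature retina, with a median log2 fold change of 3.89. Embigin, which is also related to basigin, was counted with the chaperones above and was lower. Nxnl1, which encodes the rod-derived cone viability factor, rose from 0.174 to 236 cpm between E14 and P60, with 90.8 cpm at P6. Atp1b2, the glial sodium pump subunit, rose from 47.6 to 1001 cpm, and Nptn, the basigin relative neuroplastin, by 1.85 on the log2 scale. From P1 to P6 all 4 rose, Nxnl1 by 4.16 and Nptn by 0.80 on the log2 scale.

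Among 10 genes that trap glucose or handle lactate and pyruvate, 6 were higher, 3 lower and 1 not called, with a median of 0.28. Hexokinase 1 (Hk1) rose by 3.14 and hexokinase 2 (Hk2) by 2.54 on the log2 scale. Hk2 stood at 14.0 cpm at P6 and 114 cpm at P15, a step of 2.94 on the log2 scale in the same interval as that of Slc16a1. Txnip, which promotes removal of GLUT1 from the cell surface, rose from 18.9 cpm at E17 to 70.9 cpm at P1, by 1.86 on the log2 scale, and went to 38.7 at P6 and 5.31 at P15, a fall of 2.65 on the log2 scale in the last step. Lactate dehydrogenase A (Ldha) fell by 0.78 from E17 to P1 and rose by 1.26 from P1 to P6, yet its mature level was only 0.15 above the embryonic one, and Ldhb was not called.

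The 4 creatine genes outside the set were low. Gatm and Gamt, the enzymes that make creatine, fell by 1.201 and 0.90 on the log2 scale and were at or below 1.81 cpm at P15, P28 and P60. Ckm, the muscle kinase, rose from 0.0702 to 3.00 cpm between E14 and P15, and Ckmt2 was not called. Muscle genes as a whole summed to at most 11.3 cpm in any library.

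For a view of which genes ran most like each member, the Pearson r of log2(cpm + 1) over the 27 libraries was taken against 11000 genes with a mean of at least 10 cpm. These r values describe libraries that share their ages and totals, and no test was made. Ckmt1 ran closest to Fam135b, Amph and Grik1 (r of 0.99 each), Slc2a1 to Aldh1a3 (0.98) and Bsg to Hk1 (0.98). The closest to Slc16a1 were A930014D07Rik, Xylt1 and Plekha8 (0.98 to 0.99), and to Slc2a3 they were Panx2 and Sh3gl2 (0.98). Slc16a7 reached 0.93 with Snx10, Ckb 0.92 with Nxf1, Slc6a8 0.86 with Arhgap31 and Slc16a3 0.83 with Ank3. Slc16a8 reached no more than 0.61. Within the set, Slc2a3 and Bsg had r = 0.96 and Slc2a1 and Ckmt1 r = -0.94.

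The counting is not stated to use strand. In GENCODE on GRCm38, Slc2a1 (chromosome 4, 119108711 to 119137983) shares 105 exonic bases, 2.99% of its exons, with the antisense gene Gm12868. Slc16a7 (chromosome 10, 125219270 to 125389465) shares 179 bases, 1.51%, with Gm47862 on the other strand, and Ckmt1 (chromosome 2, 121357714 to 121363737) shares 10 bases with Strc. Slc16a1 lies at 104638668 to 104658462 on chromosome 3 and, like the other 6 genes, shares no exonic base with another annotated gene. Reads in the shared stretches cannot be assigned to a strand.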

How the data were processed

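The authors prepared total RNA from whole C57BL/6J mouse retinas, made libraries with the SMARTer total RNA kit and aligned reads with STAR to mm10 (GRCm38). They deposited a table of CPM values for 38168 features and 27 libraries, of which 14905 features have no Gene ID. The annotation used and whether counting used strand are not given in the sources used here. No column of the table was left unused (0). Low CPM values were whole multiples of a single step per library, and 100% of values came out as whole reads within a tolerance of 0.01. The totals recovered in this way were 7077781 to 11332323 reads, with a median of 7969873. On these totals 3 reads, the most a count of 0 allows, correspond to 0.265 to 0.424 CPM. Such limits are for counting error alone.

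The age and replicate number in each label set the groups. The members, gene lists and tests were chosen with earlier results of these data known. The 10 genes were matched by symbol, each to a single entry. Of the features, 31760 reached 1 CPM in 3 or more libraries and were tested on the log2(CPM + 1) scale. All 27 libraries entered 1 limma 3.58.1 fit (R 4.3.3) with trend and a mean per age. Its two-sided p-values were adjusted by Benjamini-Hochberg for the 31760 tests, and a fold change on this scale understates the change of low genes. The mature group is the mean of the P15, P28 and P60 means and the embryonic group that of E14 and E17. All 10 genes are named, with genes of 5 fixed lists and the 3 features whose pattern was most like each gene's. Summed levels and comparisons between genes used CPM per kb of the exons in GENCODE (GRCm38). Ratios used two-sided exact permutation tests on plain means over the 6 embryonic and 14 mature libraries, not on means of age means. Libraries of the same age were shuffled as separate units, so these p-values do not measure the spread between ages. Where nothing says that libraries came from separate animals, p-values measure only the spread between libraries. No pair of libraries of an age agreed within sampling noise (lowest chi-square per degree of freedom 1.69 over 42 pairs).

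Alternatives were a pseudocount of 0.1, no filter, a mean of at least 10 CPM, a block for the replicate number, scaling by median of ratios, the compared ages only, edgeR 4.0.16 and DESeq2 1.42.0 on the recovered reads, summing entries that share a symbol, a minimum log2 fold change of 1, and leaving out each library. Leaving out P60 libraries 1, 2 and 6 or 3, 4 and 5 was added after seeing the data. The fits were tested on simulated data. The rest ran in Python 3.11.15 (scipy 1.17.1, pandas 2.3.3, numpy 2.4.6), with figures by matplotlib 3.10.9.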

Additional observations from a re-analysis of the deposited data

Results flagged for a closer look

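Each gene was screened at P1, P15, P28 and P60 for a library far from the others of its age, by the gap to the nearest library over the whole range (Dixon's 95% limit). Of 40 groups, 4 had such a library, and chance alone gives about 1 in 20. Ckb in P1 replicate 2 was at 535 cpm, below the other P1 libraries at 802 to 856 cpm. In that library Slc6a8 was the other way, at 42.4 cpm above 32.9 to 33.7 cpm. The pigment epithelium list summed to 12.1 cpm there and to 20.01 to 23.8 cpm in the others, and the endothelial list, mostly Kdr at this age, to 424 against 477 to 492.8 cpm. In P15 replicate 4 Slc16a1 was at 140 cpm, below 159.9 to 164 cpm, and Slc6a8 at 22.0 cpm, below 26.5 to 27.4 cpm. In that library the Muller glia list summed to 1588 cpm, against 1433 to 1463 cpm in the other P15 libraries, and the endothelial list to 264 against 225 to 229.9 cpm. The endothelial sums rest mostly on few genes. Kdr averaged 457 cpm at P1, and at P15 Kdr averaged 124 cpm and Flt1 66.1 cpm. These sums therefore follow those genes more than the list as a whole. The part of any cell type in the flagged values was not tested.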

How the results depend on the processing

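Between embryonic and mature retina the direction of all 10 genes held under every alternative run, and 8 or 9 were called when single libraries were left out (Slc6a8 being the call that was lost). The counts ran from 2 to 3 (E14 to E17), 3 to 4 (E17 to P1), 5 to 7 (P1 to P6), 6 to 7 (P6 to P15), 0 to 1 (P15 to P28) and 0 to 3 (P28 to P60) when single libraries were left out. With a minimum log2 fold change of 1 the counts were 5, 0, 1, 3, 1, 0 and 0, in the order of mature against embryonic and the 6 steps. From E17 to P1 the count was 5 without P60 libraries 1, 2 and 6 and also 5 without 3, 4 and 5. From P15 to P28 it was 2 in the fit of the compared ages only and 1 under each of these omissions of 3 libraries. From P28 to P60 it was 0 with a pseudocount of 0.1, no filter, median-of-ratios scaling, the replicate block, the compared ages only, edgeR, and without P60 libraries 3, 4 and 5, and it was 1 (Ckb, higher) with DESeq2 and 6 without P60 libraries 1, 2 and 6. In that step Ckb and Slc2a1 reversed to -0.017 and -0.072 without P60 libraries 3, 4 and 5. The cause was not tested.

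Same-numbered libraries did not deviate together (3 of 69 pairs had a correlation over 0.1), so replicate numbers do not pair them. The replicate block gave 0 calls from P28 to P60 and lost Slc16a1 from P1 to P6 (adjusted p = 0.064, limma). The 4 log2 ratios kept their direction and p under 0.05 without any single library, at 3.39 to 3.62 for Slc2a3 to Slc2a1, -3.27 to -3.12 for Slc16a3 to Slc16a1, -1.64 to -1.52 for Slc16a7 to Slc16a1 and 4.41 to 4.62 for Ckmt1 to Ckb. From P28 to P60, 1524 of 4100 calls over all features were upward, against 2093 of 4059 with median-of-ratios scaling and 2118 of 3481 with edgeR. In that comparison the replicate block gave 1029 calls. The rise of Slc6a8 to mature retina was also lost in the fit of the compared ages only (adjusted p = 0.052, limma) and without P60 libraries 3, 4 and 5 (0.090). Slc16a8 could not be fitted with a mean of at least 10 CPM. Depth limits this gene, with 9 to 42 reads per library.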
